A study of Rattus norvegicus with 3 samples.

Results

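Wide H3K9me3 peaks were selected on their listed width, as the rows of the H3K9me3 peak list that are longer than 5000 bp and lie on chromosomes 1 to 20 of the rat build rn6, leaving out chromosome 13 between 1 and 35 Mb by peak start. This gave 547 of the 49591 listed H3K9me3 peaks. Of the other peaks over 5 kb, 271 lay in the omitted part of chromosome 13, 5 on X and 3 on unplaced sequences. The chromatin came from round spermatids isolated from the testis of untreated Sprague-Dawley rats, the haploid germ cells between meiosis and elongation. It was precipitated with a rabbit antibody against H3K9me3 or a mouse antibody against H3K4me3, and another library was made without antibody. There was 1 library per mark, the labels used give neither the number nor the age of the animals, and peak lists hold no expression values, so the labelled cell type could not be checked against marker genes. The library without antibody is assumed to be the control of both peak lists, as their naming implies but no label states. Should the word negative in that naming instead mean calls made with precipitate and control swapped, every value here would refer to the control.

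H3K9me3, the trimethylated form of lysine 9 on histone H3, is a mark of heterochromatin. It is laid down by methyltransferases such as SUV39H1, SUV39H2 and SETDB1, is bound by HP1 proteins, and covers pericentromeric repeats, endogenous retroviruses, young LINE elements and clusters of zinc finger genes. Such chromatin can form long blocks, because the bound proteins recruit further methyltransferase. H3K4me3, by contrast, sits at active and poised promoters, and the marks are generally found at different places.

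The wide peaks made up 1.34% of the 40818 H3K9me3 peaks of the same sequence but 7.79% of their length, 3.96 of 50.9 Mb. Their widths ran from 5002 to 32775 bp with a median of 6363 bp and quartiles of 5562 and 7710 bp. Most lay close to the limit, 216 of them between 5 and 6 kb and 130 between 6 and 7 kb, whereas 36 were between 10 and 15 kb, 6 between 15 and 20 kb and 8 beyond 20 kb. The peaks on either side of the limit were alike. Just below it were peaks of 4995, 4998 and 4999 bp on chromosomes 18, 3 and 8 with scores of 493, 535 and 648, and just above it peaks of 5002, 5005 and 5012 bp on chromosomes 12, 17 and 5 with scores of 480, 428 and 712. No H3K4me3 peak was centred in any of these 6.

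The score is the authors' value for each peak, given by their peak caller, and is used here only within the list. Because width chose the peaks and score comes from the same call, the scores are a description. The lowest score of a wide peak was 279.6, the median 774, the upper quartile 1285 and the highest 3167. The narrower peaks had a median of 56.96, and 93.3% of them scored below the lowest wide peak. A score of at least 3100 was reached by 45 wide peaks, 44 of them at exactly 3100, so strength above that value is not resolved. This was 8.23% of the wide peaks, and over peaks of all widths the share was 0.233%. Within the wide peaks the rank correlation of width and score was 0.589 over 547 peaks of 1 library, and in the narrower peaks it was 0.795.

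**Figure D1:**
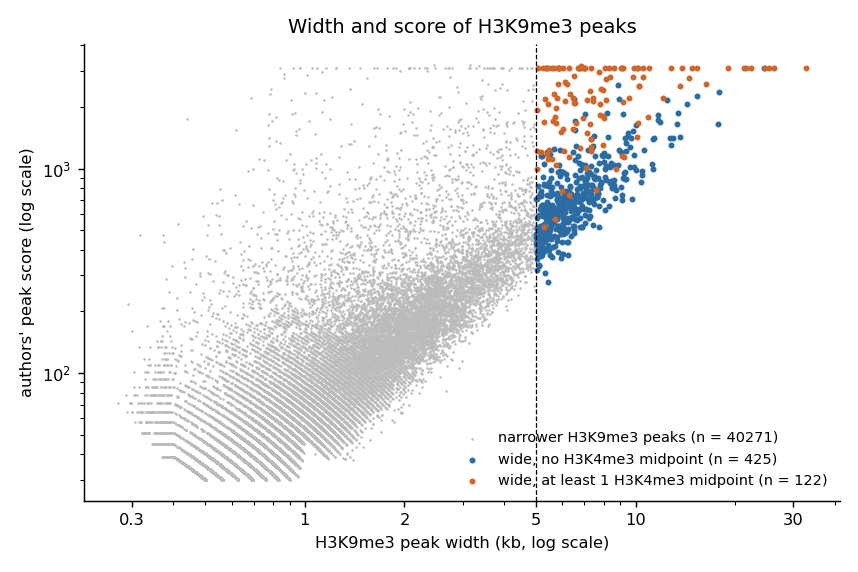
Width (kb, log scale) against the authors' score (log scale) for H3K9me3 peaks of chromosomes 1 to 20 outside the omitted part of chromosome 13; each point is 1 peak, grey for narrower peaks, blue for the 425 wide peaks without and orange for the 122 wide peaks with an H3K4me3 midpoint, and the dashed line marks 5 kb. The orange points sit mostly above a score of 1000 at every width, and the blue points follow the upward band of the narrower peaks.

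Wide peaks were unevenly spread over the chromosomes. Chromosomes 1, 2, 7 and 8 held 136, 62, 56 and 55 of them, together 56.5%. By length, chromosome 1 came first with 0.481 per Mb (95% Poisson interval 0.404 to 0.569), followed by chromosome 8 with 0.413 (0.311 to 0.537) and chromosome 7 with 0.386 (0.292 to 0.501). These 3 intervals overlap. The median chromosome had 0.157 per Mb. Chromosomes 13 (outside its omitted part) and 19 held 1 each, 0.0125 and 0.0161 per Mb, with upper bounds of 0.0698 and 0.0895. The order was not only that of the H3K9me3 list: wide peaks were 2.29% of all H3K9me3 peaks on chromosome 1 and 2.01% on chromosome 8, but 0.174% on chromosome 19 and 0.569% on chromosome 6. The intervals treat peaks as independent, which clustered peaks are not, and cover counting error only.

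**Figure D2:**
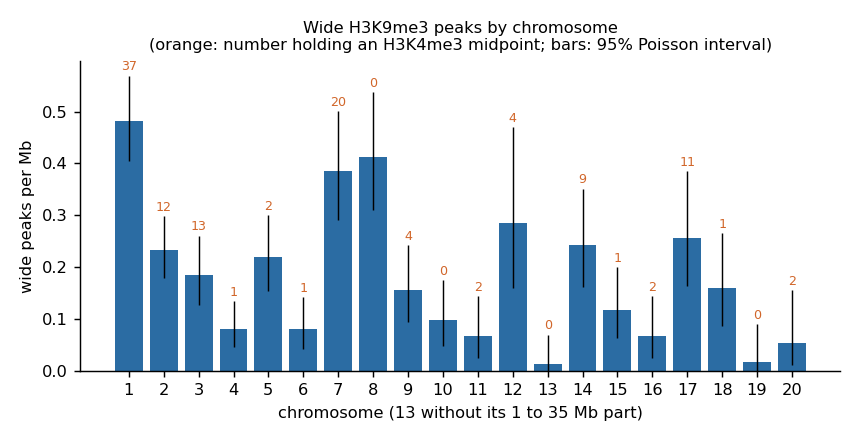
Wide H3K9me3 peaks per Mb (vertical axis) on each of chromosomes 1 to 20 (horizontal axis); bars give the density, black lines the 95% Poisson interval, and orange numbers how many of the wide peaks held an H3K4me3 midpoint. Chromosomes 1, 8 and 7 stand highest, and chromosome 8 carries 0 wide peaks with an H3K4me3 midpoint. Narrower peaks are not counted here.

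The starts and ends of the chromosomes, in rn6 coordinates, differed. The first 3 Mb held 39 wide peaks, or 0.672 per Mb, where all the sequence considered had 0.212 per Mb. This was 7.13% of the wide peaks, near the 6.25% of H3K9me3 peaks of all widths that lay there. Of the 39, 10 were on chromosome 5, 8 each on chromosomes 2 and 8, and 7 on chromosome 7. The last 3 Mb held 2, or 0.0333 per Mb (0.366% of the wide peaks, against 1.28%), both on chromosome 17. The length of a chromosome was taken as its last listed peak end.

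The wide peaks were gathered into groups. Of the 547, 387 had another wide peak within 100 kb (70.7%, Wilson interval 66.8 to 74.4%). For H3K9me3 peaks of all widths, a wide peak other than itself lay within 100 kb of 26.2%. The median gap between neighbouring wide peaks was 96.2 kb, with quartiles of 20.5 and 733 kb, whereas even spacing would put them 4718 kb apart. Chains of gaps of at most 100 kb gave 120 clusters, 57 of them pairs and 15 of at least 5 peaks, and left 160 wide peaks alone. Only 202 of 2592 windows of 1 Mb held a wide peak, and 33 windows with at least 5 of them contained 246.

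At closer range, a wide peak was usually a piece of a longer, broken stretch. Another H3K9me3 peak lay within 1 kb of 469 wide peaks (85.7%, against 55.1% of peaks of all widths), and the median distance to the nearest one was 0.22 kb. When peaks with gaps of at most 1 kb were joined, the 547 wide peaks fell into 495 blocks with a median width of 11.7 kb and a median of 3 joined peaks, and 78 wide peaks stayed single. The widest block ran from 22013196 to 22073017 on chromosome 14 over 59.8 kb and joined 9 peaks, 4 of them wide. The next, of 52.5 kb, began at 47838697 on chromosome 17 and also held 4 wide peaks. Joining also made 2077 blocks over 5 kb that contain no wide peak, so the width limit picks out unbroken calls rather than all long stretches of the mark.

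On the scale of megabases, 278 wide peaks (50.8%, Wilson interval 46.6 to 55.0%) lay in H3K9me3 domains, here runs of at least 3 windows of 1 Mb with over 5% of each covered. Of H3K9me3 peaks of all widths, 33.1% did. Because wide peaks add to the cover that defines a domain, this is a description. With domains drawn from peaks of at most 5000 bp, the share was 49.0%. All 27 domains outside the omitted part held at least 1 wide peak, but in different measure. Between 73 and 78 Mb of chromosome 1 there were 54 wide peaks among 818, or 6.601%, and between 15 and 20 Mb of chromosome 7 there were 23 among 558. In contrast, 3 of 439 peaks were wide between 17 and 20 Mb of chromosome 6, and 8 of 888 between 46 and 52 Mb of chromosome 14. The other 269 wide peaks lay outside domains, with a median score of 834 against 740 inside them.

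The largest cluster ran from 75659182 to 76157778 on chromosome 1 and put 17 wide peaks of 5076 to 12415 bp into 499 kb. H3K9me3 peaks covered 61.6% of it, with 106 narrower peaks between the wide ones, and no H3K4me3 peak was centred anywhere in it. The second, from 107538495 to 107967251 on chromosome 2, held 11 wide peaks in 429 kb and had the lowest scores of these clusters, 279.6 to 840. The third, 9 wide peaks between 74813205 and 75035654 on chromosome 1, was covered to 76.5%. Neither contained an H3K4me3 midpoint. Of the 8 clusters with 6 wide peaks, the first by summed width ran from 143837170 to 144053286 on chromosome 3, followed by the one from 47815990 to 47995085 on chromosome 17. In contrast to the larger ones, both held the other mark: H3K4me3 midpoints numbered 23 and 22 in their spans, 18 and 14 of them inside wide peaks.

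H3K4me3 peaks were counted in a wide peak when their midpoint lay inside it. At least 1 was found in 122 of the 547 wide peaks (22.3%, Wilson interval 19.0 to 26.0%), and the share over H3K9me3 peaks of all widths was 4.73%. A wider peak offers more room, so the density is also given. Wide peaks held 291 midpoints, 73.4 per Mb of their length, and the narrower peaks 41.9 per Mb. H3K4me3 peaks covered 13.2% of the length of wide peaks and 4.25% of that of narrower ones. Counting any overlap of at least 1 bp added 1 wide peak, for 123 in all (22.5%, against 5.11%). That peak, from 229016315 on chromosome 1, was covered by H3K4me3 to 100%. It is counted among the 425 without H3K4me3, because the midpoint of the covering peak lay elsewhere.

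The density was near level up to 5 kb and higher beyond 6 kb. In peaks of up to 1 kb, 1 to 2 kb, 2 to 3 kb, 3 to 4 kb and 4 to 5 kb there were 42.4, 39.8, 42.6, 44.3 and 45.7 midpoints per Mb. In wide peaks of 5 to 6 kb there were 48.3, in those of 6 to 10 kb, split at 7500 bp, 64.6 on either side, and in those beyond 10 kb 139.6. The share holding a midpoint went from 15.7% (11.5 to 21.2%) at 5 to 6 kb to 52.0% (38.5 to 65.2%) beyond 10 kb, where the median score was 2239. Width and score move together here, and their parts were not separated by this comparison.

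Read by score, the share of wide peaks holding H3K4me3 rose from very few at low scores to nearly all at high ones, with a mixed band between. Of the 354 wide peaks with a score under 1000, 7 held a midpoint (1.98%, Wilson interval 0.961 to 4.03%). Between 1000 and 2000 it was 36 of 106 (33.96%, 25.7 to 43.4%), and at 2000 or more 79 of 87 (90.8%, 82.9 to 95.3%). At 3100 or more, 44 of 45 did. The 122 holding peaks had a median score of 2400 and a lowest of 518, and the 425 others a median of 701 and a lowest of 279.6. Their ranges overlapped, since the highest score without H3K4me3 was 3100.

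At the same score, the share holding H3K4me3 was lower in wide peaks than in narrower ones, without a test of the difference. Between 500 and 750 the shares were 1.60% of 188 wide peaks (0.544 to 4.59%) and 43.6% of 472 narrower ones (39.2 to 48.2%). Between 750 and 1000 they were 4.35% of 92 (1.70 to 10.7%) and 72.6% of 164 (65.3 to 78.8%), and between 1000 and 2000 they were 33.96% of 106 and 92.2% of 219 (87.9 to 95.1%). From 2000 upward the intervals met. The order turned when score was divided by width, although the score has no stated meaning per length. The 44 wide peaks at exactly 3100 are placed on this scale by their width alone. The widest of them, with 12 midpoints, thus came to 94.6 per kb. At 200 to 300 per kb, 71.7% of 46 wide peaks (57.5 to 82.7%) and 37.3% of 800 narrower ones (33.97 to 40.7%) held a midpoint, and below 150 per kb the shares of both were at most 6.39%. In both readings H3K4me3 went with strong H3K9me3 calls, and which width held it more often depended on the scale. Both lists are taken to share 1 control library, whose signal was not analysed here, and its part in this relation was not tested.

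**Figure D3:**
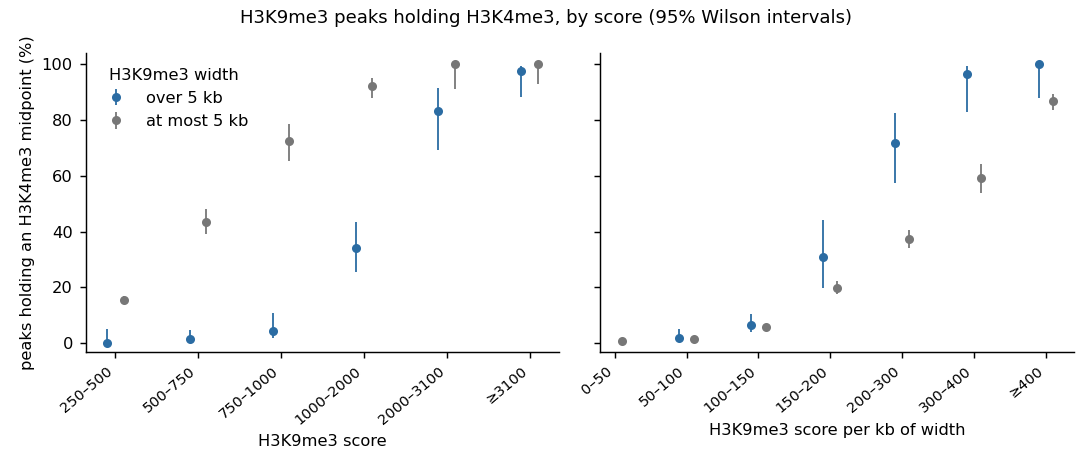
Percentage of H3K9me3 peaks holding an H3K4me3 midpoint (vertical axis) by score class (left) and by class of score per kb of width (right), blue for peaks over 5 kb and grey for peaks of at most 5 kb; points are shares and lines 95% Wilson intervals. On the left grey lies above blue in every class, with intervals that do not meet below a score of 2000. On the right blue lies above grey in every class that holds wide peaks, with intervals apart at 200 to 400 per kb.

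The exceptions at either end were few. The 7 wide peaks with H3K4me3 and a score under 1000 held 11 midpoints in all. The weakest ran from 19450011 to 19455298 on chromosome 7, with 1 midpoint and a score of 518, and the peak from 146998326 to 147005938 of chromosome 2 scored 782 and held 3 midpoints. Of the 8 wide peaks with a score of at least 2000 and no midpoint, the strongest was also among the widest: 24508 bp from 73603408 to 73627915 on chromosome 1, with a score of 3100. Next came 144044457 to 144053286 of chromosome 3 with 2557 and 62445430 to 62463356 of chromosome 14 with 2356. All of these were named after their values were seen, except for the 24508 bp and the chromosome 14 peak, which are among the 10 widest.

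The share of wide peaks holding H3K4me3 also varied over chromosomes. Shares in this paragraph are for wide peaks alone. They are not set beside narrower peaks of the same chromosome or domains, so no trait particular to wide peaks is shown. None of the 55 wide peaks of chromosome 8 held a midpoint (Wilson upper bound 6.53%), and the highest score there was 1440. On chromosome 1 it was 37 of 136 (27.2%, 20.4 to 35.2%), on chromosome 7 20 of 56 (35.7%, 24.5 to 48.8%), on chromosome 3 13 of 33 and on chromosome 17 11 of 23. Chromosome 5 had 2 of 38. Scores of at least 1000 were reached by 12.7% of the wide peaks of chromosome 8, 37.5% of those of chromosome 7 and 57.6% of those of chromosome 3. On chromosomes 4 and 15 such scores were as frequent as on chromosome 7, at 40% and 38.5%. H3K4me3 was held there by 1 of 15 (6.67%, 1.19 to 29.8%) and 1 of 13 (7.69%, 1.37 to 33.3%). Both intervals overlap that of chromosome 7. The highest scores were 2176 and 2316 there, and 3100 on chromosome 7. Chromosome 5 also reached 3100, and 26.3% of its wide peaks scored at least 1000, near the 27.4% of chromosome 2. H3K4me3 was held by 5.26% on chromosome 5 (1.455 to 17.29%) and 19.35% on chromosome 2 (11.43 to 30.85%). The interval of chromosome 5 lies below that of chromosome 7 and overlaps that of chromosome 2. The part of score in these shares was not tested. Wide peaks in domains held H3K4me3 in 16.5% (12.6 to 21.4%) and those outside in 28.3% (23.2 to 33.9%).

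Most clusters were of one kind. In 80 of the 120 clusters no wide peak held a midpoint, in 16 every one did, and 24 were mixed. The median over clusters of their median score was 717, 2631 and 1524 for these kinds. Since 57 of the 120 clusters were pairs and most clustered peaks held no midpoint, many would be of one kind without any grouping by H3K4me3. Whether more were so than these shares give was not tested. Clustered wide peaks held H3K4me3 in 24.3% (20.3 to 28.8%) and single ones in 17.5% (12.4 to 24.1%), intervals that overlap.

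Within the wide peaks, H3K4me3 midpoints were spread over most of the width and were sparser at the very ends. With position counted from 0 at one end to 100% at the other, the median midpoint was at 49.3%. The outer 25% of the width at each end held, in sum, 139 of 291 midpoints (47.8%, Wilson interval 42.1 to 53.5%), where an even spread gives 50%. With each of the 122 holding peaks weighted alike, the share was 42.5%. Intervals for midpoints treat them as independent, which those in the same wide peak are not. For midpoints in H3K9me3 peaks of all widths, the pooled share was 24.2%, with 1963 of 2254 midpoints in narrower peaks. Median widths there were 890 bp for H3K9me3 peaks and 856 bp for the H3K4me3 peaks centred in them. Such sizes leave a midpoint less room away from the centre, so this share is no baseline for wide peaks. The central 20% of the width held 64 midpoints (22.0%, 17.6 to 27.1%). The outermost 10% at each end held 21 and 18, together 13.4% (9.96 to 17.8%), where an even spread gives 20%, and the 8 steps of 10% between them 26 to 37 each. Within 1 kb of an end there were 18.6% of the midpoints and 23.0% of the length of the holding peaks. The median distance from a midpoint to the nearer end was 2.19 kb. H3K4me3 peaks centred in the outer parts scored 63.8 at the median and were 1079 bp wide, and those centred between them scored 81.0 and were 1285 bp wide. H3K4me3 peaks longer than 50% of the wide peak numbered 27. Such a peak can be centred in the outer 25% only by crossing an end. How much this bears on the outer shares and on these medians was not tested.

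Most of the H3K4me3 peaks with their midpoint in a wide peak lay wholly within it. Their median width was 1205 bp and that of the holding wide peaks 7099 bp, so sizes alone would leave many inside. The share that an even spread would give was not computed. The whole H3K4me3 peak lay inside the wide peak for 270 of 291 midpoints (92.8%), 21 crossed an end, and 4 further H3K4me3 peaks overlapped a wide peak with their midpoint outside. H3K4me3 did not stop at the ends, however. Outside wide peaks its midpoints numbered 26.1 per Mb within 5 kb, 20.6 per Mb at 5 to 10 kb, 12.3 per Mb at 10 to 50 kb and 7.68 per Mb at 50 to 100 kb. Over all the sequence considered there were 2.91 per Mb. Of the outermost 0.5 kb inside the ends, 7.78% was covered by H3K4me3, and of the sequence 1.5 to 2 kb inside, 12.4%. The first 0.5 kb outside was covered to 2.11% by H3K4me3 and to 29.5% by other H3K9me3 peaks, and the sequence 1 to 1.5 kb outside to 4.36% and 53.2%. These covers are over all 547 wide peaks, of which 425 held no midpoint. For the 122 holding peaks, H3K4me3 covered 34.1% and 54.8% at the same places inside, and 8.65% and 18.5% outside.

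**Figure D4:**
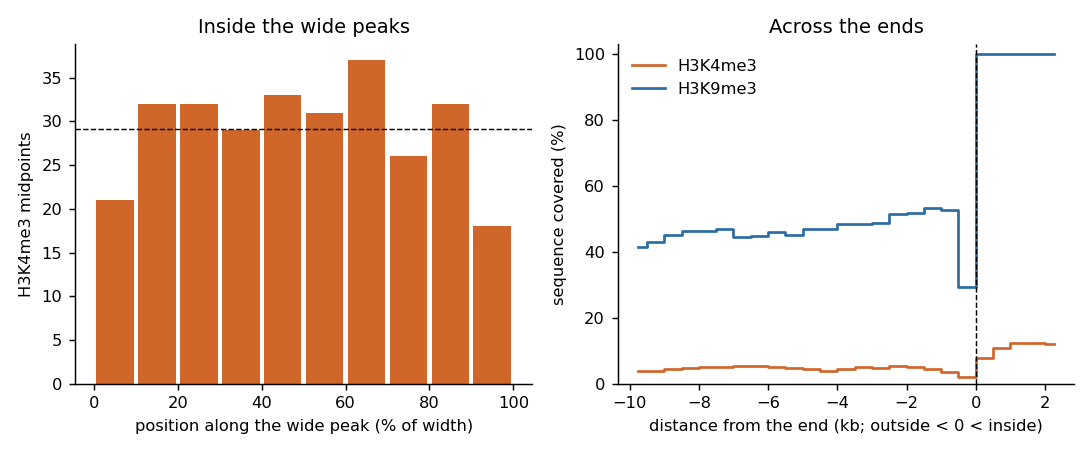
Left, H3K4me3 midpoints (vertical axis) in steps of 10% of the width of the wide peaks (horizontal axis, % of width), with the dashed line at the even share of 29.1 per step. Right, percentage of sequence covered by H3K4me3 (orange) and H3K9me3 (blue) in steps of 0.5 kb from 10 kb outside to 2.5 kb inside both ends of the 547 wide peaks, where outside values include neighbouring wide peaks. The middle steps on the left range from 26 to 37, the first and last are lower at 21 and 18, and on the right both marks are lowest in the first 0.5 kb outside.

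Wide peaks differed in how many H3K4me3 peaks they held. Exactly 1 midpoint was found in 48 wide peaks, 2 in 36, 3 in 21 and 4 or more in 17. The 12 wide peaks with at least 5 held 88 midpoints, 30.2% of all. Of single midpoints, 12 of 48 lay in the outer 25% at either end (25%, 14.9 to 38.8%). In 14 of these 48 the H3K4me3 peak was longer than 50% of the wide peak, and 0 of the 14 lay in these outer parts. Among the other 34 it was 12 (35.3%, 21.5 to 52.1%). Where 2 or more were held, 52.3% were in the outer parts (46.0 to 58.5%), an interval that meets that of these 34. Their median spacing was 2.10 kb, with quartiles of 1.59 and 2.93 kb.

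At the median, the H3K4me3 peaks inside wide peaks were longer than those in narrower H3K9me3 peaks or off H3K9me3. Their median score was not much above that in narrower H3K9me3 peaks. Their median width was 1205 bp, against 856 bp for the 1963 in narrower H3K9me3 peaks and 889 bp for the 5176 off H3K9me3. The 82 that overlapped H3K9me3 with their midpoint outside it were longer still, with a median of 1378 bp. Median scores in wide peaks, in narrower peaks and off H3K9me3 were 73.3, 67.6 and 43.8. The strongest calls were divided otherwise: a score of at least 3100 was reached by 12 of 291, 9 of 1963 and 0 of 5176. Of the 31 H3K4me3 peaks over 5 kb, 18 overlapped a wide H3K9me3 peak (58.1%), against 3.93% of H3K4me3 peaks of all widths, and a longer peak has more room to overlap. Each of the 18 had more than 50% of its length there. They touched 20 wide peaks, 3.66% of the 547. Several of the 18 lay close together, as on chromosome 1 between 55682002 and 56032608 and on chromosome 20 between 40826449 and 40875958. The share of 58.1% thus rests on fewer places than peaks. The longest, 31019 bp from 228994956 on chromosome 1, ran across 3 wide H3K9me3 peaks with 89.5% of its length in them. One of these, from 228993670 to 229006463, was covered by H3K4me3 to 98.0%. Among the wide peaks that held a midpoint, the median share of width under H3K4me3 was 46.1%, and in 58 wide peaks it was over 50%.

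The wide peaks with most H3K4me3 stood together on chromosome 7. From 19620936 to 19760984, a span of 140 kb, 4 wide peaks followed each other. The first was 22312 bp wide and held 10 midpoints. The second, from 19660620, was 24576 bp wide and held 10. The small peak from 19713316, of 5025 bp and a score of 710, held none. The last, from 19728210, was 32775 bp wide, the widest of all, and held 12. The 3 large ones had a score of 3100, and H3K4me3 covered 57.7%, 64.3% and 58.0% of them. The H3K4me3 peaks in them scored from 30.2 to 255, where all H3K4me3 peaks of the sequence considered had a median of 49.2 and an upper quartile of 90.7.

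Similar rows of both marks occurred elsewhere. The cluster of chromosome 3 at 143837170 had its 6 wide peaks with 2, 1, 9, 3, 3 and 0 midpoints in order along the chromosome, and the one with 9 was the widest, at 25365 bp, with a score of 3100. On chromosome 14, 4 wide peaks between 22026593 and 22073017 held 3, 5, 6 and 3, and their scores were 3100, 2114, 3100 and 1672. On chromosome 17, the 6 wide peaks from 47815990 held 6, 3, 1, 2, 2 and 0, and the one without any had the lowest score, 506. On chromosome 2, the 14812 bp peak from 194751341 held 8 midpoints and was covered to 78.6%, while the first wide peak of its cluster, from 194638706, with a score of 849, held none.

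The widest peaks were not all rich in H3K4me3. Among the 10 widest peaks, 9 scored 3100, but 4 had little or no H3K4me3. The 24508 bp peak of chromosome 1 and the 17927 bp peak from 62445430 of chromosome 14 held 0, the 21342 bp peak from 77284768 of chromosome 1 held 1 and was covered to 6.49%, and the 26261 bp peak from 173090725 of chromosome 3 held 2 and was covered to 6.14%. The remaining 2 of the 10 were the 21517 bp peak of chromosome 17 and the 19081 bp peak of chromosome 14 named above, with 6 midpoints each. The next by score, where ties at 3100 were put in order of width, were peaks of 6833 bp on chromosome 14 from 15486122 (score 3167, the only value above 3100), 15290 bp on chromosome 5 from 77658832, 14812 bp on chromosome 2, 13768 bp on chromosome 3 from 173360788 and 12794 bp on chromosome 1, with 1, 2, 8, 6 and 1 midpoints.

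**Figure D5:**
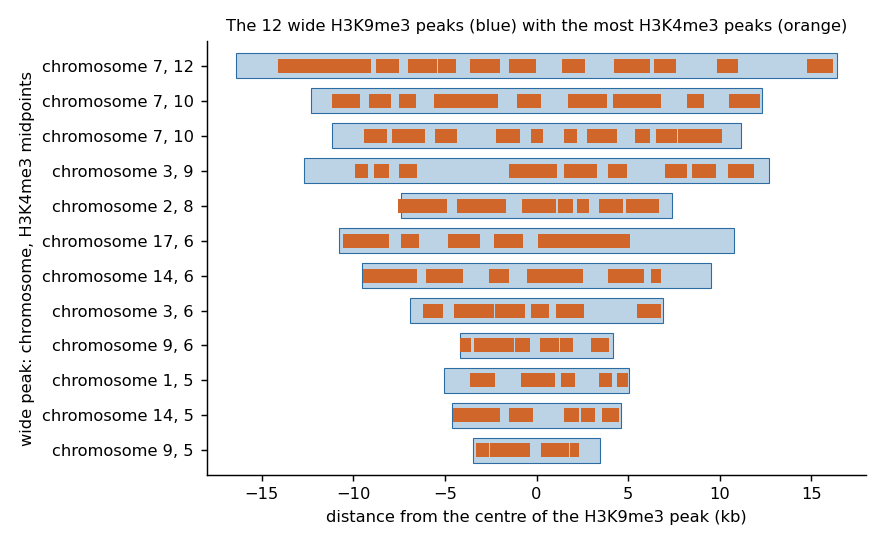
Drawn to scale, the 12 wide H3K9me3 peaks (blue boxes) with the most H3K4me3 midpoints, each centred at 0 with distance in kb on the horizontal axis; rows are labelled by chromosome and number of midpoints, and orange boxes are the H3K4me3 peaks. H3K4me3 peaks are spread along most of the width in most rows, and the chromosome 17 row has none in its right-hand part.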

How the data were processed

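Chromatin immunoprecipitation and sequencing gave 1 library each for H3K4me3, H3K9me3 and no antibody, read as 75 bp paired ends per the labels' protocols. Bowtie 1.2, bcl2fastq, FastQC and the build rn6 are listed, without roles, per the submitters' processing notes. The peaks carry names of the caller MACS, per the file columns. How the caller was set, how duplicates were handled and how the control was used is not given in the sources used here. For each peak the deposited score has no stated meaning, and its lowest value was 30. Read counts are not in these peak lists, and the depth is unknown. A caller that joins or splits enriched stretches by its own gap rule sets the widths, and with it which peaks pass 5 kb.

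Widths are end minus start, and starts are printed counted from 1. Midpoints, clusters, domains, Wilson and exact Poisson intervals (95%) were computed with Python 3.11.15, numpy 2.4.6, pandas 2.3.3 and scipy 1.17.1, and the counting of midpoints was tested on simulated data. No p-value was computed, as each mark has 1 library. Named regions were the 10 widest, the 5 next highest scores (ties by width), the 5 with most H3K4me3 midpoints, the 5 largest clusters and 3 peaks on each side of the limit. Others named in the text (domains, joined blocks, exceptions by score, long H3K4me3 peaks, members of the clusters with most H3K4me3) were picked after seeing their values. The peaks, classes and rules were chosen with earlier results of these data known. Gene names and sequences were not used here, since the tables follow GRCr8 and the peaks rn6.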

Additional observations from a re-analysis of the deposited data

Results flagged for a closer look

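Peaks over 5 kb also occurred outside the sequence described. In the part of chromosome 13 from 1 to 35 Mb there were 271, with a median width of 6269 bp, a median score of 630 and a highest score of 3100. An H3K4me3 midpoint lay in 6 of them (2.21%). On X there were 5, and 2 of them held H3K4me3: the peak from 36468994 to 36475067, with a score of 3204, held 1 midpoint, and that from 43312326 to 43318549, with a score of 1155, held 3. The other X peaks scored 661, 671 and 778. These peaks were singled out because they lie in data that the comparisons leave out. Unplaced sequences carried 3, with scores of 984 to 3100.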

How the results depend on the processing

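A score filter at the list median left the wide peaks as they were. Of the 38 other alternative values, 21 stayed within the interval of the reported one. The share of wide peaks with an H3K4me3 midpoint (22.3%) became 34.5% above 7500 bp, 17.6% above 4000 bp, 15.6% with the proximal part of chromosome 13 and 16.8% with H3K4me3 peaks at or above their median score. The share of midpoints in the outer 25% at each end (47.8%) was 25% in wide peaks holding 1 midpoint, and 18.6% lay within 1 kb of an end against 23.0% of length. The share with a wide neighbour (70.7%) was 44.6% above 7500 bp, 80.5% above 4000 bp, 77.4% with chromosome 13, 39.9% for 20 kb, 85.6% for 500 kb and 85.7% for 2572 joined blocks. The median score (774) was 1320, 598 and 722 above 7500 bp, above 4000 bp and with chromosome 13. The share in domains (50.8%) was 67.1% with chromosome 13 and 37.1% for windows over 10% covered. Stricter widths change which peaks are counted, and other causes were not tested. Leaving out chromosome 1 or 7, added after the data were seen, kept all 5 values within their intervals. The depth is unknown, so H3K4me3 under the caller's limit may be missing from wide peaks. No paired analysis was possible because each group has 1 library.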
